A study of Mus musculus with 2 samples.

Results

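Neuropeptide precursor genes and the gene of the CRH-binding protein were compared between the retinas of 2 mouse littermates, 1 wild type and 1 Sox11 knockout. The members were 9 peptide genes (Crh, Npy, Sst, Tac1, Penk, Vip, Cck, Gal and Cartpt) and Crhbp, 10 genes of the 18193 that the array annotation names alone on at least 1 probe set. They were chosen by name, with earlier results of these arrays known, and every probe set annotated to exactly 1 of these symbols was taken, which gave 11 of 45037 probe sets. Both embryos were on a C57BL/6 background and at embryonic day 18. The genotypes were labelled wild-type and Sox11-/-, with no further allele or agent named. From each embryo the total RNA of 1 retina was amplified, and the biotin-labelled product was read on an Affymetrix mouse array. Sox11 is a transcription factor of developing neurons, and the design asked which transcripts differ when it is missing. How the knockout allele was made, and which part of the gene it lacks, is not given in the sources used here. A single array per genotype gives no measure of the spread among animals, so values carry no error and were not tested, and each difference is between 2 arrays. Pairs of intensities are given with the wild type first and the knockout second.

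Neuropeptides are cut from larger precursor proteins by convertases, stored in dense-core vesicles and released to act on G protein-coupled receptors of other cells. In the mature retina most of them mark small subsets of amacrine cells, the interneurons of the inner retina, and some are also made by ganglion cells. The CRH-binding protein is a secreted glycoprotein that holds corticotropin-releasing hormone (CRH) and urocortin and keeps them from their receptors.

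Of the 10 genes, 6 were measured above background on both arrays: Crhbp, Npy, Tac1, Penk, Gal and Cartpt. Background was set at an intensity of 18.6, the median over all probe sets of both arrays, because detection calls were not used here; 47.7% of all probe sets were above it on both arrays. The remaining 4 genes, Crh, Sst, Vip and Cck, were below it on both arrays, so no member was counted through 1 array alone. Crhbp stood out, with an intensity about 3 times as high on the knockout array. Gal and Penk read higher by a smaller amount, Cartpt slightly so, Tac1 was nearly level and Npy was the single measured member that read lower. Over all 11 probe sets, 8 were higher and 3 lower on the knockout array, against 52.1% higher among all probe sets. Differences are given as log2 ratios, knockout minus wild type, of intensity + 5, a scale that understates the change of dim genes. The median log2 ratio over the 11 probe sets was 0.41, beside 0.02 over all probe sets, and 0.29 over the 10 without Crhbp. Past a log2 ratio of 1 in either direction were 2 of the 11, Crhbp and Cck, against 3.39% of all probe sets; both intensities of Cck were below background, so its ratio gives no fold. Among those above background on both arrays, 1 of 6 was, against 0.619%, and 5 of 6 were higher by any amount on the knockout array, against 53.5%. These counts describe members picked with the values known, and nothing was tested on them.

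**Figure D1:**
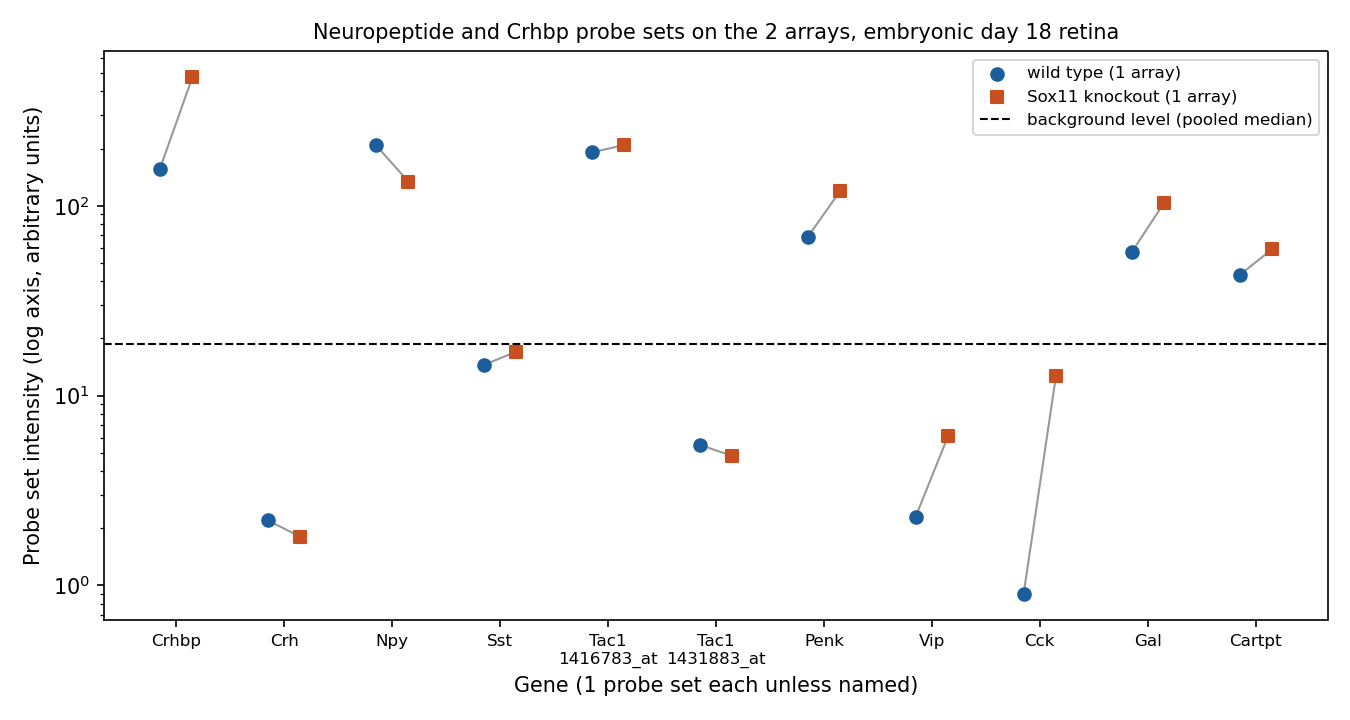
Intensity of each member probe set (log axis, arbitrary units) on the wild-type array (circles) and the Sox11 knockout array (squares), with 1 array per genotype and a dashed line at the background of 18.6. Crhbp goes from 156.9 to 474.7, and Crh, Sst, Vip, Cck and the second Tac1 probe set lie under the line on both arrays.

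Promoters of 8 members were matched by symbol in a RefSeq table of build GRCm38.p6, which gives 250 bases before and 50 after each start site; Crh and Penk had no entry. The cAMP response element, the DNA element bound by the activity-dependent factor CREB, is a textbook feature of neuropeptide genes, so its letters were searched on both strands. The full element TGACGTCA was found in Cartpt and Sst, 2 of 8, and in 1.79% of all 32851 promoters in the table. Its core CGTCA, which the full element holds on both strands, was found in 7 of 8 (all but Npy) and in 20.8% of all promoters. A match is a description of letters and not of a bound site. The 250 bases before the start are shown for Crhbp, which had the largest difference among measured members, for Cartpt and Sst, which share the full element although only Cartpt was above background, and for Npy, which was lower on the knockout array and has no core. They run 5′ to 3′ on the strand of the gene, with the full element or the core in capitals.
Crhbp, chr13:95444832-95445081, minus strand: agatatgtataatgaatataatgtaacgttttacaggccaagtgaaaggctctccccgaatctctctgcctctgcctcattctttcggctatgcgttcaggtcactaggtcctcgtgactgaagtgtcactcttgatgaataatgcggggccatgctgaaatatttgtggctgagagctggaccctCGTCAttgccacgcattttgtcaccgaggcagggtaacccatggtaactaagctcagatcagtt
Cartpt, chr13:99900684-99900933, minus strand: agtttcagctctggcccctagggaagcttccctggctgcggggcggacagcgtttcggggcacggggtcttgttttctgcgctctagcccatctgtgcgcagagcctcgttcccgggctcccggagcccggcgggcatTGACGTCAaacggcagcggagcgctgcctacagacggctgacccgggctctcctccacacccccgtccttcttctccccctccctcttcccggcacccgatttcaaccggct
Sst, chr16:23890845-23891094, minus strand: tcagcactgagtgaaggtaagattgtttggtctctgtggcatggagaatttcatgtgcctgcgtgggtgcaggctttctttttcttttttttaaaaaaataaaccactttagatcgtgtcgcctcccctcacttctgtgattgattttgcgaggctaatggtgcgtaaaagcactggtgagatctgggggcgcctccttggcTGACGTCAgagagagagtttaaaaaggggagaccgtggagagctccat
Npy, chr6:49822460-49822709, plus strand: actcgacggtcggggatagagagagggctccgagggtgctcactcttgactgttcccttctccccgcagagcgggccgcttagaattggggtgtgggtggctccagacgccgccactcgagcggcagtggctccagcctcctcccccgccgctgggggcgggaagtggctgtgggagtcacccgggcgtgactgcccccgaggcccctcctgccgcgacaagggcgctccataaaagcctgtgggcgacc
In Crhbp the core begins 64 bases before the start, in Sst the full element begins 48 bases before it, and in Cartpt 112 bases before it. The TATA box letters TATAAA were found in Crhbp and Vip, 2 of 8 promoters, against 13.6% of all, and in Crhbp they lie after the annotated start, from base 31 to base 36, outside the stretch shown. The letters ACAAAG and ACAATG, cores that Sox proteins are known to bind, were found in none of the 8 windows, and in 18.7% and 12.6% of all promoters. That says only that these letters are not in these windows.

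Crhbp, whose product binds and sequesters CRH, had the highest ratio among measured members. Its 1 probe set, 1436127_at, had intensities of 156.9 and 474.7, so the knockout was 3.03-fold higher, with a log2 ratio of 1.57. The 1000 probe sets nearest to it in mean level had log2 ratios between -0.42 and 0.50 in their central 95%. Among the 21472 probe sets above background on both arrays, Crhbp ranked 10 by log2 ratio from the highest. RNA of a whole retina was measured, so more cells with a transcript and more RNA per cell cannot be told apart.

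The other genes of the CRH system were below background on both arrays. Crh, the hypothalamic releasing hormone, read 2.2 and 1.8. Ucn, the urocortin precursor that Crhbp also binds, read 1.7 and 0.4, and the related Ucn2 and Ucn3 read no higher than 2.4 on either array. The receptor Crhr1 read 13.1 and 12.9 on its brighter probe set, and Crhr2 read 11.5 and 8.6. Of these 7 genes of the CRH system, Crhbp was the 1 above 18.6 on either array. At the lower limit of 10.7 described below, Crhr1 was also above on both arrays and Crhr2 in the wild type. These genes were grouped after their values were seen.

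**Figure D2:**
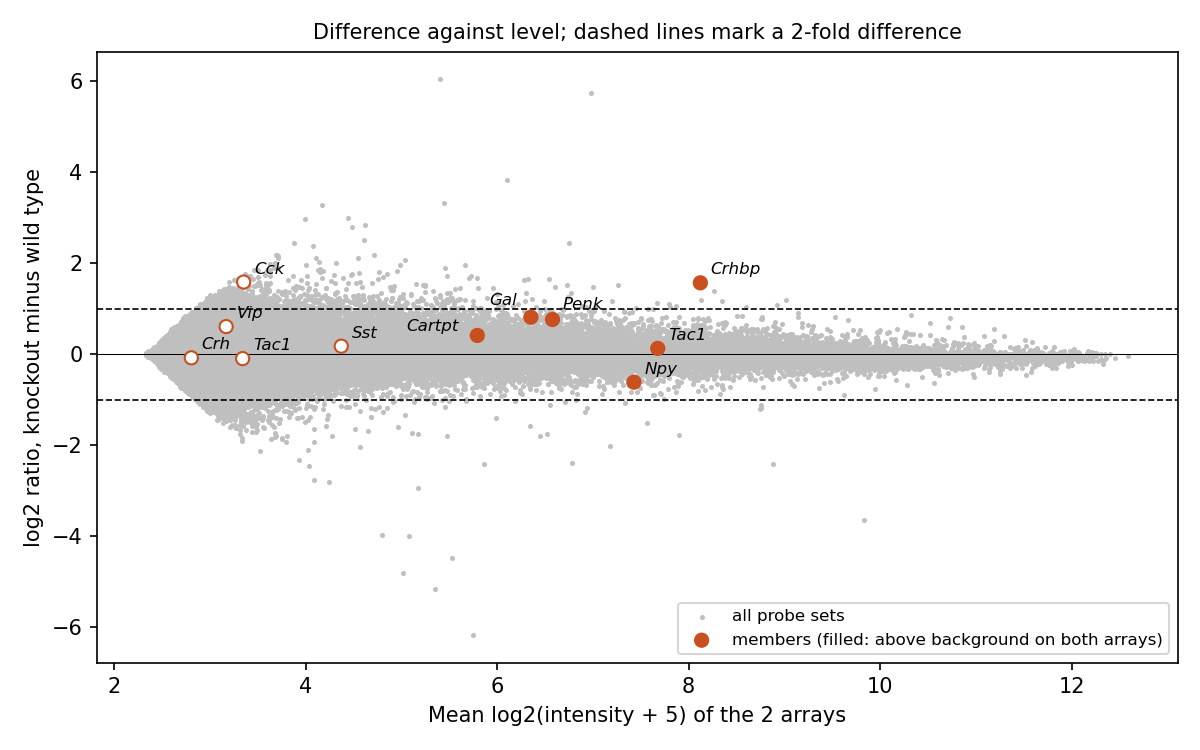
Log2 ratio of knockout minus wild type against the mean log2(intensity + 5) of both arrays, for all 45037 probe sets (grey) and the 11 member probe sets (orange, filled where above background on both arrays). Crhbp, at 1.57, lies above most probe sets of its level, whereas Cck, at 1.58, lies among dim probe sets with a wide spread.

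Gal and Penk differed in the same direction by less than 2-fold. Gal encodes galanin, a peptide of sensory and hypothalamic neurons, and read 56.7 and 103.3, a 1.82-fold difference and a log2 ratio of 0.81. Penk encodes proenkephalin, the precursor of the opioid enkephalins, and read 68.4 and 119.4, 1.75-fold, with a log2 ratio of 0.76. Both ratios were above the central 95% of the 1000 probe sets nearest in level, which ended at 0.68 for Gal and 0.69 for Penk. Cartpt, the precursor of the CART peptides, read 43.1 and 58.9. Its log2 ratio of 0.41 lay inside the central 95% at its level, which ran from -0.51 to 0.84.

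Npy and Tac1 were bright on both arrays and went different ways. Npy, neuropeptide Y, read 208.5 and 134.1, so the wild type was 1.55-fold higher and the log2 ratio was -0.62. That lay below the central 95% of the probe sets nearest in level, which began at -0.42. Tac1 encodes the precursor of substance P and neurokinin A and had 2 probe sets. The brighter, 1416783_at, read 191.1 and 208.7, a log2 ratio of 0.12, which is smaller than the SD of 0.23 of log2 ratios between probe sets of the same gene, pooled over 5181 genes. The other, 1431883_at, read 5.5 and 4.8, below background on both arrays, so Tac1 was counted as measured on 1 of its 2 probe sets.

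The 4 genes below background gave no usable difference. Sst, somatostatin, came nearest to the limit at 14.5 and 17.0, with a log2 ratio of 0.17. Vip, vasoactive intestinal peptide, read 2.3 and 6.1. Cck, cholecystokinin, read 0.9 and 12.7, and its log2 ratio of 1.58 is between intensities that were both under 18.6. No fold is given for these 4 genes for that reason. A lower limit, from genes of nasal chemoreceptors that serve as a gauge of silent genes, changes the picture for 2 of them: the 95th percentile of 80 olfactory and vomeronasal receptor probe sets was 10.7, which Sst exceeded on both arrays and Cck on the knockout array alone. The member nearest above 18.6 was Cartpt, whose lower intensity was 43.1, and the nearest below it was Sst, whose higher one was 17.0.

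**Figure D3:**
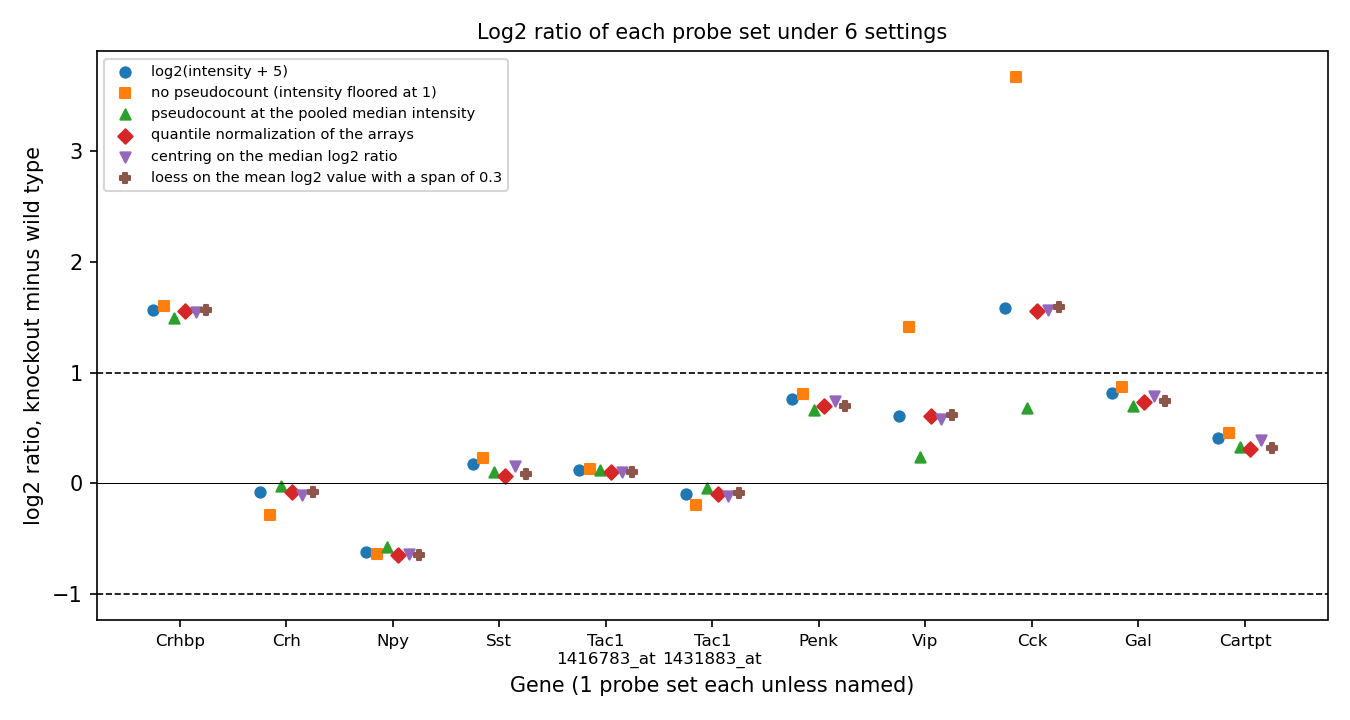
Log2 ratio of each member probe set under log2(intensity + 5) and 5 other settings; dashed lines mark a 2-fold difference. Crhbp stays between 1.49 and 1.60, while Cck ranges from 0.68 to 3.67 and Vip from 0.24 to 1.41.

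Receptors for these peptides were mostly below background. Of 24 listed receptors 23 had a probe set, and 4 were above background, each on both arrays: Sstr2, Tacr3, Vipr2 and Cckbr. Sstr2, a somatostatin receptor, read 99.9 and 170.3, with a log2 ratio of 0.74. Tacr3, which prefers neurokinin B, read 79.2 and 96.7 on its brightest probe set, a log2 ratio of 0.27. Vipr2, a receptor of VIP, read 91.2 and 83.7, a log2 ratio of -0.12, and Cckbr, a cholecystokinin receptor, read 30.9 and 27.7, a log2 ratio of -0.13. With only the members counted as peptide genes, 3 of these 4 receptors belong to one that was itself below background here (Sst, Vip and Cck). Other peptides that these receptors bind were not counted. The reverse held for others: no receptor of NPY, of the opioid peptides or of galanin was above background, although Npy, Penk and Gal were (Galr3 had no probe set). None of the 4 receptors was at least 2-fold apart, against 1.35% of the 11557 genes above background on at least 1 array, each taken at its brightest such probe set.

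Other neuropeptide precursors above background mostly read lower on the knockout array. Of 28 listed genes 24 had a probe set, and 6 were above background on at least 1 array; 5 of the 6 read lower and 1 higher, against 47.7% higher among all such genes, with a median log2 ratio of -0.23 beside -0.01 over all such genes. Pyy, peptide YY of the NPY family, read 35.0 and 12.4, so the wild type was at least 1.88-fold higher against the background value. Its log2 ratio was -1.20, and it was the 1 of 6 past a log2 ratio of -1, against 0.407% of such genes. Pyy was counted through the wild-type array alone, so its lower reading in the knockout was fixed by that limit. Pnoc, the nociceptin precursor, read 58.9 and 28.7, a log2 ratio of -0.92. Oxt, oxytocin, and Nmb, neuromedin B, had -0.26 and -0.20. Probe sets above background on at least 1 array were split into 4 groups by level. The central 95% of log2 ratios began at -0.76 in the dimmest group and at -0.53 in the next, so Oxt and Nmb lay inside both. Pomc, proopiomelanocortin, had -0.01 on its brighter probe set and 0.35 on the other, both above background, so its direction is not settled. Adcyap1, the PACAP precursor of some ganglion cells, read 20.2 and 25.3, a log2 ratio of 0.27.

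Most listed genes for making and storing peptides were above background on both arrays. Of 17 listed genes of precursor processing and secretory granules, 16 had a probe set and 15 were above background on both arrays, 8 higher and 7 lower on the knockout array, with a median log2 ratio of 0.06. Among all genes above background on at least 1 array 47.7% were higher, and none of the 15 was at least 2-fold apart, against 1.35% of those genes. The median ranged from -0.03 to 0.06 over the settings, so it had no fixed sign. Cpe, the carboxypeptidase that trims cut peptides, read 3450.2 and 2507.3, a log2 ratio of -0.46. Scg3 and Chgb, granins of the vesicle core, both had -0.16. Pcsk1, a prohormone convertase, was the 1 gene of the list below background, at 13.9 and 2.9. Pcsk2, another prohormone convertase, had no probe set, so neither was measured above background.

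**Figure D4:**
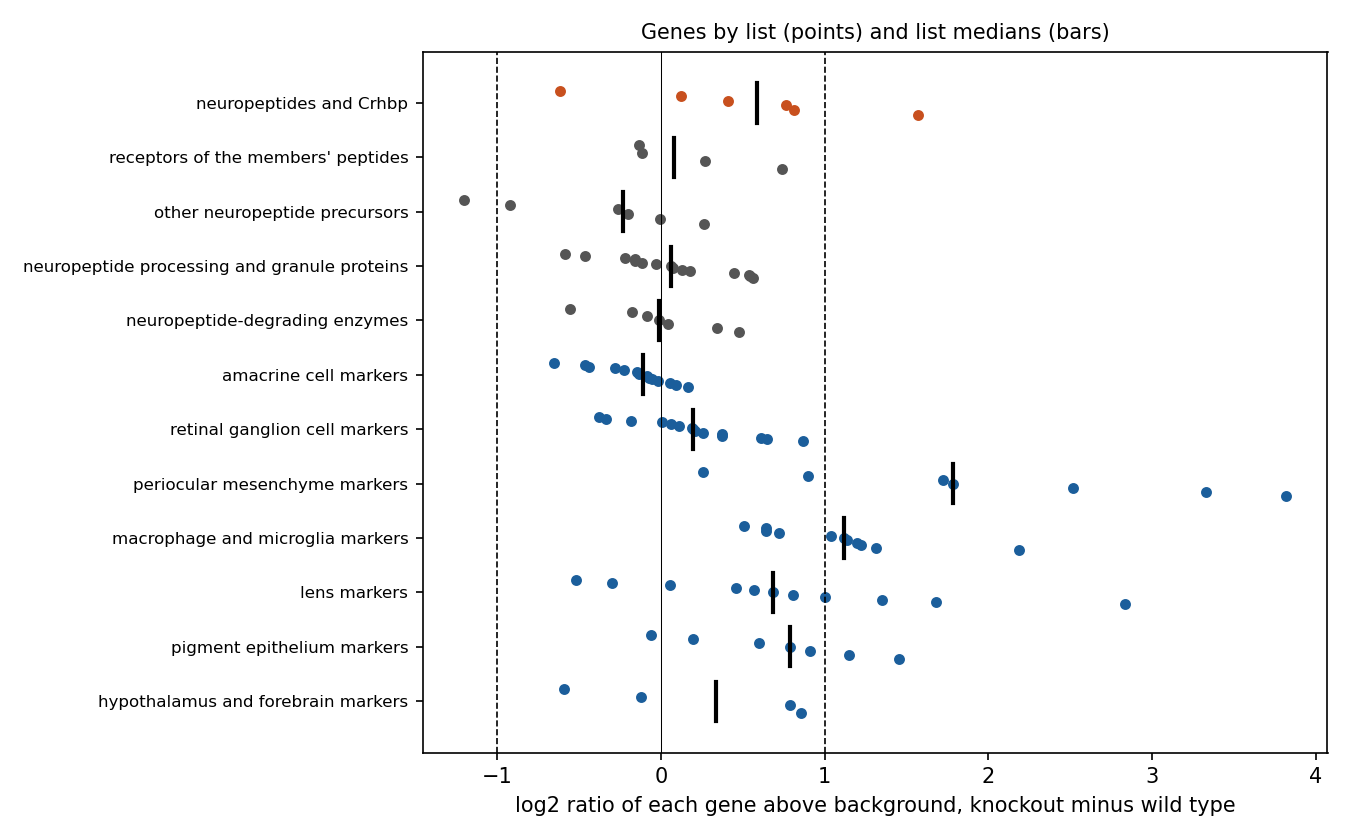
Log2 ratio, knockout minus wild type, of each gene above background on at least 1 array (points) and list medians (black bars), for the members (orange), 4 lists of the neuropeptide system (grey) and 7 lists of cell type or tissue markers (blue); dashed lines mark a 2-fold difference. The 6 measured members spread from -0.62 to 1.57; the amacrine cell list has a median of -0.11 and the mesenchyme list one of 1.79.

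Markers of amacrine cells, which carry most retinal neuropeptides, mostly read slightly lower on the knockout array, and those of ganglion cells slightly higher. Of 17 amacrine cell markers with a probe set, 14 were above background and 3 of them read higher on the knockout array, against 47.7% of all genes, with a median log2 ratio of -0.11 and summed intensities of 6924.0 and 6461.3; Chat, Th and Neurod6 were below background. The log2 ratios of the 14 ran from -0.65 for Gad1 to 0.16 for Tfap2b. The brightest were Pax6 at -0.05, Meis2 at -0.22 and Calb2 at -0.02. Other probe sets above background on both arrays had 0.42 and 0.06 for Pax6, and 1.01, -0.37 and -0.27 for Meis2. The directions of Pax6 and Meis2 are thus not settled. All 15 ganglion cell markers with a probe set were above background and 12 read higher, against the same 47.7%, with a median of 0.20 and summed intensities of 9249.1 and 10915.6. Of these, Stmn2 had -0.18, Nefl 0.01 and Atoh7 0.87.

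Besides the hypothalamus and forebrain list, described at the end, 6 lists of cells other than retinal neurons had members above background. Of these 6 lists, 4 had higher summed intensities on the array on which Crhbp, Gal and Penk were higher (mesenchyme, macrophages and microglia, lens and pigment epithelium). The other 2 had lower ones, in each case through 1 gene. Of 10 periocular mesenchyme markers with a probe set, 7 were above background, 6 of them through the knockout array alone, and the summed intensities were 92.5 and 617.2. Against the background value, the matrix genes Col3a1, Dcn, Lum and Postn were at least 13.6-fold, 7.17-fold, 2.87-fold and 2.09-fold higher in the knockout, and Col1a2, above background on both arrays, had a log2 ratio of 1.72. Foxc2, Twist1 and Prrx1 were below background on both. Summed intensities were 382.9 and 824.5 for 13 macrophage and microglia markers, of which Aif1 and Ptprc were below background. The other 11 were above it, 3 of them through the knockout array alone, and all 11 read higher. C1qa, C1qb, C1qc, Laptm5 and Tyrobp, above background on both arrays, had log2 ratios of 1.04 to 1.31 on their brightest probe sets. Other probe sets above background on both arrays had -0.25 for Laptm5 and 0.43 and 1.45 for C1qb, so the direction of Laptm5 is not settled. Mpeg1 and Fcer1g were at least 2.75-fold and 1.58-fold higher. They were 517.4 and 797.8 for 14 lens markers, of which Bfsp1, Bfsp2 and Mip were below background, and of the 11 above it 9 read higher and 2 lower. The crystallins Cryga and Crygb had log2 ratios of 1.68 and 1.35, and Crygd and Cryba4 were at least 3.26-fold and 1.87-fold higher, while Cryaa and Lim2, the latter below background in the knockout, had -0.52 and -0.30. For 10 pigment epithelium markers the sums were 301.5 and 447.3, with Rpe65, Slc45a2 and Best1 below background. Of the other 7, 3 passed through the knockout array alone, and 6 read higher and 1 lower. Mlana and Ttr were each at least 1.12-fold higher. Among all genes above background on at least 1 array, 47.7% were higher. A gene that passed through 1 array alone is higher on that array by construction. The sums were lower in the knockout for 8 endothelial markers, 853.7 and 677.9. Most of both sums came from Kdr, which read 673.2 and 456.1, a log2 ratio of -0.56. Without Kdr the sum was higher in the knockout. Cldn5 had 0.14, and Esam, above background in the knockout alone, was at least 1.34-fold higher. Pecam1, Cdh5, Tek, Tie1 and Emcn were below background. The sums were also lower for 6 astrocyte and optic nerve markers, 351.4 and 286.0, with S100b and Olig1 below background. Of the other 4, 2 read higher and 2 lower. Pdgfra read 156.2 and 74.9, a log2 ratio of -1.01, and without it the sum was higher in the knockout. Mbp had 0.21 on its brightest probe set. Aldh1l1, above background in the knockout alone, had 0.64, and Gfap, above it in the wild type alone, had -0.38. The 4 red blood cell markers with a probe set were all below background. No marker of these lists read 0 on both arrays. The part of these tissues in the differences of Crhbp, Gal, Penk and Npy was not tested.

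As checks on the labels, all 11 neural retina markers with a probe set, Rax, Six3, Six6, Crx and Otx2 among them, were above background on both arrays, and 1 of them, the rod factor Nrl, had a log2 ratio of -1.12. Sox11 was measured by 6 probe sets, with log2 ratios from -3.64 to 1.08, of which 5 were negative. The 6 Sox4 probe sets above background ran from 0.06 to 0.48, and the 2 of Sox12 were -0.04 and 0.11. The embryos also differed in sex-linked transcripts: Xist read 12.3 and 922.7, and Eif2s3y, Kdm5d and Uty were above background in the wild type only, so sex and genotype cannot be told apart here. Over the probe sets above background on both arrays, Pearson's r between the log2 values was 0.985, across probe sets that are not independent replicates.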

How the data were processed

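Total RNA of 1 wild-type and 1 Sox11 knockout retina was measured on 1 array each. The authors deposited 1 linear intensity per probe set and array, already scaled; their software is not given in the sources used here. A mean trimmed by 2% at both ends came to 100.0 on each array, and the medians were 17.6 and 19.7. The number of arrays limits the precision.

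The 64 control probe sets were left out. Values were turned to log2(intensity + 5) without further normalization, with Python 3.11.15, numpy 2.4.6, pandas 2.3.3 and statsmodels 0.14.6 (loess). Names came from the platform annotation at GEO, with 1 symbol for 34945, several for 932 and none for 9160. For lists, a gene took its brightest probe set above background on at least 1 array. Where 1 array was below background, the brighter value over the higher of 18.6 and the dimmer value was given as a lower bound. No test was run; the procedure was checked on simulated data.

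All members were named, with Sox11, Sox4 and Sox12. The rule also took the 3 brightest genes of each list and genes at least 2-fold apart. Some of the brightest genes of the other tissue lists are not described. The CRH-system genes, Nmb, Adcyap1, Cckbr, Pcsk1, Gad1, Tfap2b, Gfap, Crygs, Lim2, genes below background and the sex-linked genes were named after their values were seen. The members and lists were chosen with earlier results of these data known. Alternatives were other pseudocounts, background limits and normalizations, and leaving out probe sets with an s, x or a suffix, which can match more than 1 transcript.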

Additional observations from a re-analysis of the deposited data

How the results depend on the processing

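The side of 2-fold held for Crhbp under all 5 other settings of pseudocount and normalization (1.49 to 1.60), and each of the 11 member probe sets kept its sign under them. The ratios of Npy (-0.65 to -0.57), Penk (0.67 to 0.80) and Gal (0.69 to 0.87) stayed under 2-fold. The count of member probe sets past a log2 ratio of 1 in either direction was 2, and it was 1, with Crhbp alone, in 3 cases: with the pseudocount at 18.6 (1), without probe sets of an s, x or a suffix (1), which leaves out the probe set of Cck, and over probe sets above background only (1). Without a pseudocount it was 3, with Vip at 1.41 and Cck at 3.67. The median over member probe sets ranged from 0.24 to 0.59. The number above background on at least 1 array was 6, and it was 4 (Crhbp, Npy, Tac1 and Penk, with Penk through the knockout array alone) at the pooled 75th percentile of 109.4 and 8, with Sst on both arrays and Cck on the knockout array, at the olfactory receptor limit of 10.7. Over all probe sets, 1529 were at least 2-fold apart, 7735 without a pseudocount and 121 with it at 18.6. No paired analysis was possible because each genotype had 1 array. Signal over background limits what can be said of Sst, Vip, Cck and Crh.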

Other observations

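Enzymes that break down neuropeptides in the extracellular space or the cytosol differed in both directions. Of 12 listed genes 11 had a probe set and 7 were above background on at least 1 array, 3 higher and 4 lower on the knockout array, with a median log2 ratio of -0.01 and none at least 2-fold apart, against 1.35% of all genes above background. Their log2 ratios ran from -0.55 for Ace, which was above background in the wild type alone, to 0.48. Ide, the insulin-degrading enzyme, had intensities of 338.5 (wild type) and 335.9 (knockout), a log2 ratio of -0.01. Prep, the prolyl endopeptidase, read 242.8 and 229.0, a log2 ratio of -0.08. Ece1, an endothelin-converting enzyme that also cleaves other peptides, had probe sets of opposite sign, at 0.48 and -0.67 among those above background. Mme, the enkephalin-degrading neprilysin, was below background on both arrays, as were Dpp4, Enpep and Anpep.

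Of 11 hypothalamus and forebrain markers with a probe set, which mark brain regions rich in neuropeptide neurons, 7 were below background on both arrays, Nkx2-1, Otp and Lhx6 among them, and the summed intensities were 163.0 (wild type) and 194.5 (knockout). Dlx1 and Dlx2, homeobox genes that are also expressed in developing retinal neurons, had log2 ratios of 0.85, from 32.2 to 62.2, and 0.79, from 25.1 to 47.1. The other 2 above background on at least 1 array read lower, Neurod2 at -0.12 and Sim1, below background in the knockout, at -0.59.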
